A study of Rattus norvegicus with 15 samples.

Results

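The genes described here are 39 genes of the smooth muscle contractile machinery and its cytoskeleton, chosen by name as rows of the deposited table that carry a gene identifier. They are 39 of 34357 genes with an identifier, and all 39 were found. Total RNA of the mesenteric artery and of the cortex of the kidney had been sequenced in rats of the Dahl salt-sensitive strain, an inbred model of hypertension. The 4 groups were wild-type arteries (4 libraries), deletion arteries (4), wild-type kidney cortices (3) and deletion kidney cortices (4). The deletion removes a noncoding interval of 30.4 kb on rat chromosome 2 (rn7 chr2:60825801-60856216). It was made in the same Dahl salt-sensitive strain, and the study asked which genes it influences. The sample titles give the sex as male and the deletion genotype as knockout, and ages, diet and treatment are not given in the sources used here. The labels do not state whether libraries came from separate animals, or whether an artery and a kidney came from the same rat, so errors and p-values measure the spread between these libraries, which may be partly technical. Expression is given in FPKM, fragments normalised for gene length and library size, which can be compared between genes, and the read depth behind the values is unknown.

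Smooth muscle cells shorten when actin filaments slide along smooth muscle myosin. Calcium switches on myosin light chain kinase, the kinase phosphorylates the regulatory light chain, and myosin phosphatase reverses this. Filaments are anchored at dense plaques and dense bodies, and many of the genes are switched on by serum response factor with its partner myocardin at a short element called the CArG box. In a resistance artery these genes mark the muscle layer of the wall. In the kidney cortex they are found in the walls of small vessels, in mesangial cells and in pericytes. These are whole tissues, so fewer cells of a type and less RNA per cell cannot be told apart in any value below.

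The CArG box is the element through which many genes of this kind are known to be regulated, so the members that carry one just upstream of the transcription start are shown. The search covered the 250 bases before the start in RefSeq promoters (GRCr8), where 30 of the 39 members had an entry, with 32 promoters among them; Tagln, Tns1, Lmod1, Pdlim3, Myl9, Itga7, Myh11, Sorbs2 and Myocd had none. A box was CC, then 6 letters that are A or T, then GG, and 1 of the 6 was allowed to be another letter. The element reads the same on both strands, so 1 search covers both. Boxes are in capitals, each sequence runs 5′ to 3′ on the strand of the gene and ends at the base before the start. Acta2, the actin that marks smooth muscle, had 2 boxes, each with 1 other letter, and their first bases lay 134 and 84 bases before the start (chr1:241172504-241172753, minus strand). Srf, serum response factor itself, had 2 exact boxes at 81 and 61 bases (chr9:21923826-21924075, plus strand). Cnn2 (calponin 2) had 1 exact box at 71 bases (chr7:10370313-10370562, minus strand), and Fhl1, a LIM domain protein of muscle, had 1 exact box at 102 bases (chrX:139638246-139638495, plus strand).
Acta2: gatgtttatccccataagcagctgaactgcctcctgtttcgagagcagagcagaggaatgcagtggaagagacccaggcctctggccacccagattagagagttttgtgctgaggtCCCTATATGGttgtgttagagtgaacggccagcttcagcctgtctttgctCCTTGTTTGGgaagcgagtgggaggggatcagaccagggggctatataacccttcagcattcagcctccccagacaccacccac
Srf: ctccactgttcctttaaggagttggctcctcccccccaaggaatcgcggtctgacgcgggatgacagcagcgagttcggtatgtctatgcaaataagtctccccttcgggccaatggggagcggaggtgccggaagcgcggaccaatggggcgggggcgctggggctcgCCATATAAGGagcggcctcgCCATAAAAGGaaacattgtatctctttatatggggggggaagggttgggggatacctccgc
Cnn2: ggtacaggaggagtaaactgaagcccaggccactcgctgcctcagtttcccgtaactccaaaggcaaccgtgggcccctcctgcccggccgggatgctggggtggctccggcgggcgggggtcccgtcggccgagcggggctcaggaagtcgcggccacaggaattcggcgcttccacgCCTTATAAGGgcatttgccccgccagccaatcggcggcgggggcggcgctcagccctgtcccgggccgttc
Fhl1: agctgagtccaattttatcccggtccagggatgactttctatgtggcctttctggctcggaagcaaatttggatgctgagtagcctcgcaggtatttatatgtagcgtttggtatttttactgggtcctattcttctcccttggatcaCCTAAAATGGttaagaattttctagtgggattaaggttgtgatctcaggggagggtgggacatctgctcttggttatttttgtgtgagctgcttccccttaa
A box of this kind stood in 4 of the 32 member promoters (12.5%), against 8.08% of the 33469 promoters of the same length, which is 2703 promoters. An exact box stood in 3 of the 32 and in 1.5% of all (501). A match is a description of the letters and not evidence of a bound factor. The 4 genes with a box differed widely in their tissue values: the log2 difference, artery minus kidney, was 6.11 for Acta2 and 3.58 for Fhl1, but 1.25 for Cnn2 and 0.41 for Srf.

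Some libraries stood apart. The artery labelled wild-type 3 was the lowest of the 8 arteries for 23 of the 39 genes, and the median gene lay 0.50 below its artery median on the log2 scale. The artery labelled deletion 2 was the lowest for 11 genes, while the artery labelled deletion 4 was the highest for 21. Markers of T, NK and B lymphocytes (8 genes) summed to 118 FPKM in wild-type artery 3 and to 85.4 FPKM in deletion artery 2, against 4.83 to 33.6 FPKM in the other 6 arteries. Deletion artery 2 also carried the highest sum of 6 mesothelial markers, 169 FPKM against 3.34 to 64.2 FPKM. Intestinal epithelium markers (8 genes) summed to 39.9 FPKM in wild-type artery 1, against 0.302 to 4.46 FPKM in the other arteries. Haemoglobin transcripts made up 33.0% of the FPKM sum in wild-type artery 4 and 1.61% to 12.0% in the others. In kidney, the library labelled deletion 2 was the highest for 26 of the 39 genes, with a median departure of 0.33. Its podocyte markers (5 genes) summed to 202 FPKM, with 158 FPKM in wild-type kidney 1 and 96.1 to 101 FPKM in the other 5, and its pericyte and mesangial markers (8 genes) summed to 77.4 FPKM against 35.4 to 52.2 FPKM. Its proximal tubule markers (7 genes) summed to 3000 FPKM, against 4403 to 5859 FPKM in the other kidneys. The kidney labelled wild-type 3 went against its label: Xist stood at 81.1 FPKM and Eif2s3y, on the Y chromosome, was listed at 0, whereas the other libraries held at most 1.30 FPKM of Xist and at least 24.1 FPKM of Eif2s3y.

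**Figure D1:**
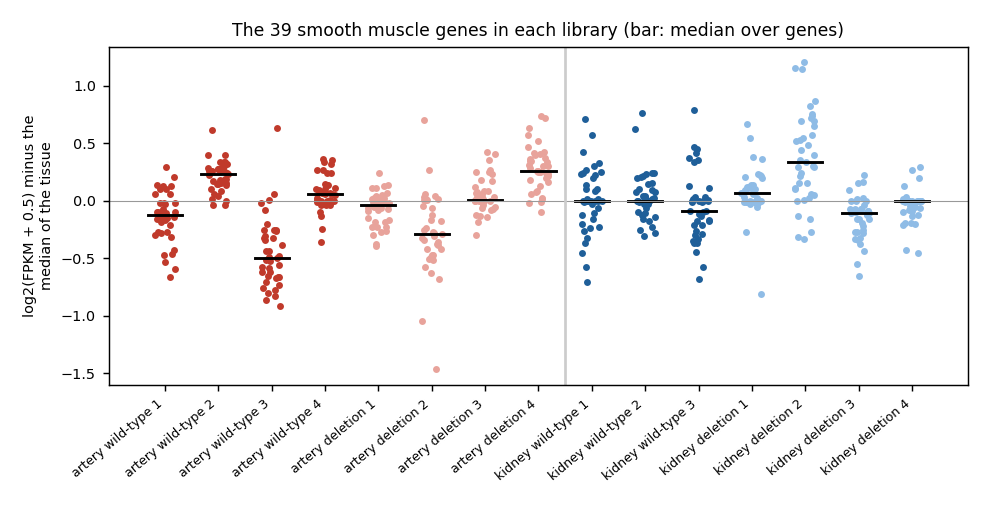
Departure of each of the 39 genes from its tissue median, log2(FPKM + 0.5), in each of 15 libraries; 1 point is 1 gene and the bar is the median over genes. Wild-type artery 3 (median -0.50) and deletion artery 2 (-0.29) sit low, and deletion artery 4 (0.26) and deletion kidney 2 (0.33) sit high.

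The 39 genes formed 1.21% to 2.02% of the FPKM sum in the arteries and 0.203% to 0.234% in the kidneys. In artery the order of mean levels began with Tagln (transgelin, an actin-binding protein of smooth muscle) at 831 FPKM ± 237 (SD, n = 8) and Acta2 at 796 ± 234 (SD, n = 8), whose ranges over the libraries overlapped. Filamin A (Flna, an actin crosslinker, 385 ± 83.6, SD, n = 8) and the LIM protein Csrp1 (346 ± 74.9, SD, n = 8) followed, and also overlapped each other. Both genes of a pair were measured in the same libraries, and their difference within libraries was not tested. In kidney the order was led by genes that most cells use. Rhoa stood at 217 ± 26.2 (SD, n = 7), the focal adhesion protein tensin 1 (Tns1) at 171 ± 20.1 (SD, n = 7) and the essential myosin light chain Myl6 at 126 ± 39.1 (SD, n = 7), ahead of Csrp1 at 43.8 ± 8.47 (SD, n = 7). At the bottom of both orders was Mylk4, a kinase related to myosin light chain kinase, at 0.0529 ± 0.022 in artery (SD, n = 8) and 0.0508 ± 0.0293 in kidney (SD, n = 7).

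**Figure D2:**
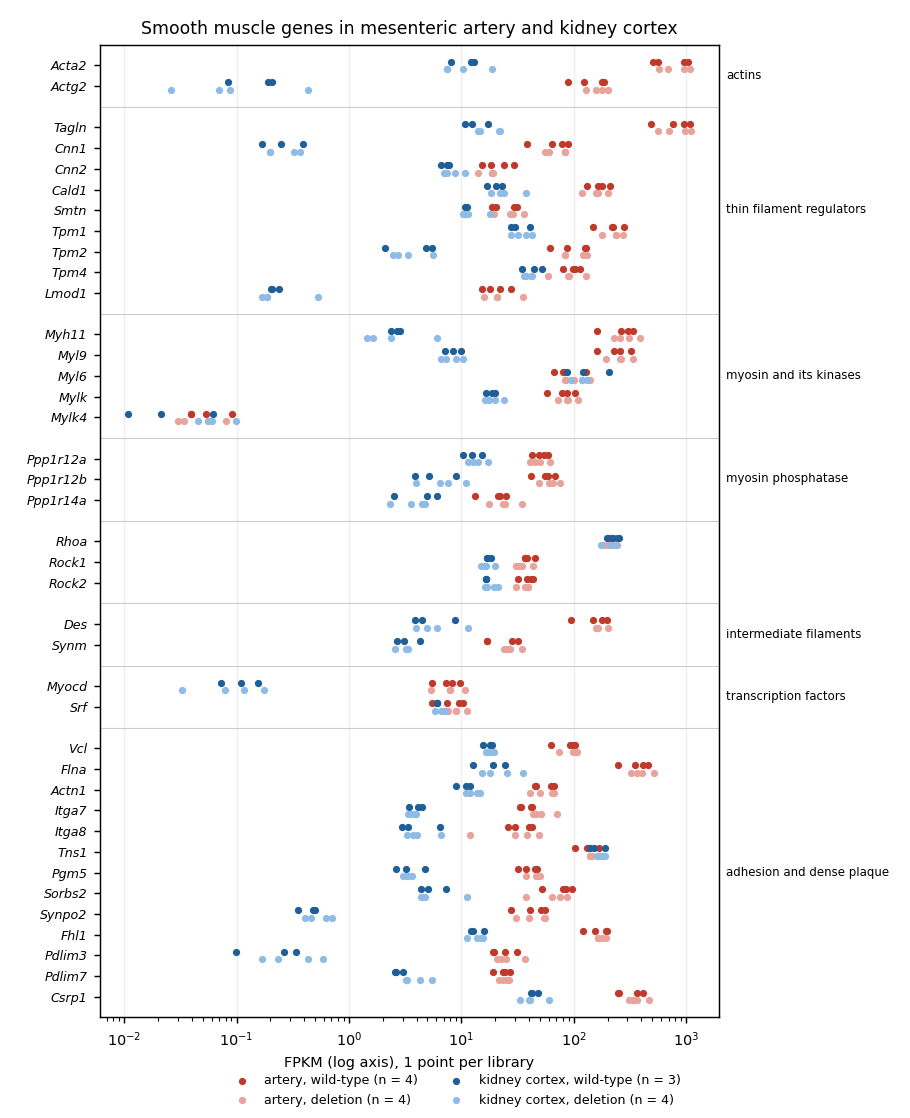
FPKM of the 39 genes, grouped by role, on a log axis; 1 point is 1 library. For most genes the 8 arteries lie to the right of the 7 kidneys, while Rhoa, Tns1, Myl6, Mylk4 and Srf overlap.

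Between tissues, 35 of the 38 genes that passed the filter were higher in artery and 1 was lower. The filter was a mean of at least 0.5 FPKM over the libraries fitted, which Mylk4 did not reach; the test was limma on log2(FPKM + 0.5), called at a Benjamini-Hochberg adjusted p under 0.05 over all 16856 genes tested. Of all genes tested, 41.8% were called higher and 35.2% lower in artery, so a call by itself is common here, and sizes are given throughout. Without the kidney labelled wild-type 3, whose sex-linked genes go against the label, the calls were again 35 higher and 1 lower. The median log2 difference was 2.90 over the 38 genes and 0.11 over all genes. For 34 of the 35 the lowest artery lay above the highest kidney; the exception was Srf. Fold values below come from the fit, average the genotypes equally and are on the log2(FPKM + 0.5) scale, so they understate the change of genes that are low in kidney.

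**Figure D3:**
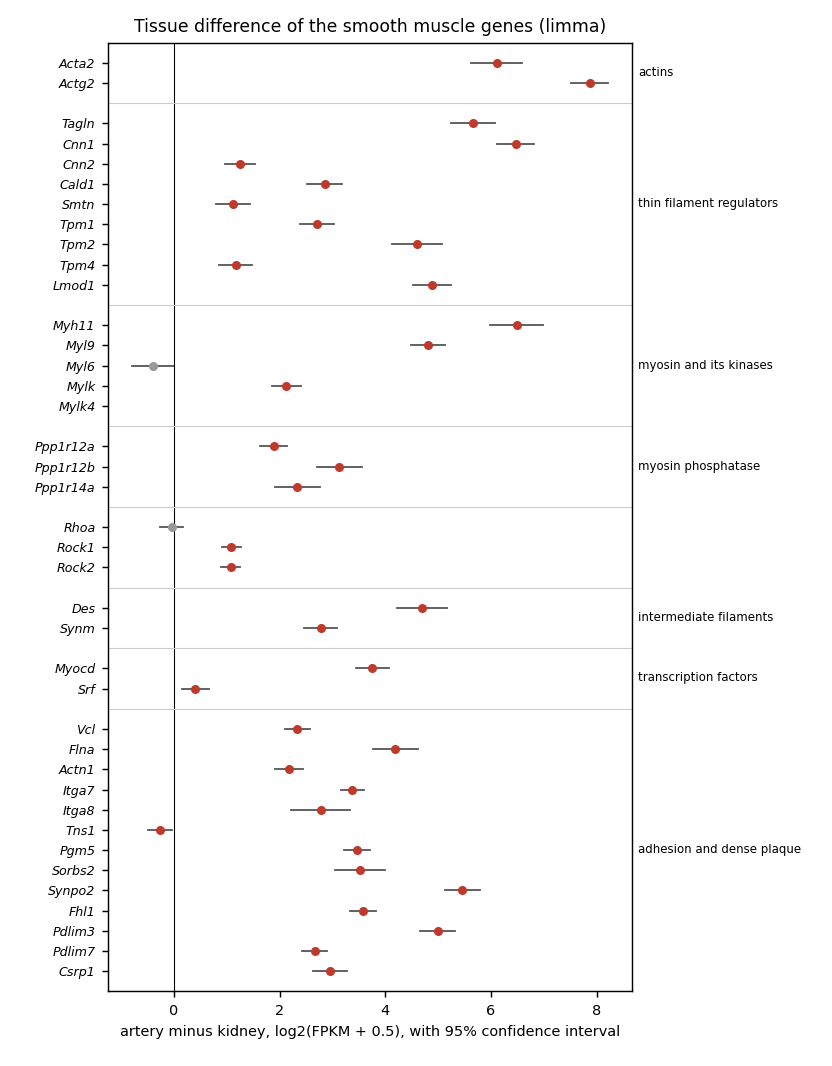
Tissue difference of each gene, artery minus kidney in log2(FPKM + 0.5), with its 95% confidence interval from limma (8 arteries, 7 kidneys); coloured points passed the test and grey ones did not. Actg2, Myh11, Cnn1 and Acta2 lie above 6, and Rhoa, Myl6 and Tns1 lie near or below 0.

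The actins were among the genes with the largest log2 differences, but Acta2 came after Myh11 (6.48) and Cnn1 (6.46). Acta2 (rn7 chr1:231746527-231759307, minus strand) stood at 559, 948, 512 and 1042 FPKM in wild-type arteries and 693, 576, 1074 and 961 FPKM in deletion arteries. In kidney it stood at 12.9, 12.3 and 8.13 FPKM in wild-type and 10.3, 18.7, 7.53 and 7.41 FPKM in deletion libraries. The tissues were far apart and the genotypes overlapped in both. The log2 difference between tissues was 6.11 (SE 0.23, limma adjusted p = 9.23e-13), or 69.2-fold. Actg2, the enteric smooth muscle actin (chr4:116021832-116046475, minus strand), ran from 88.9 to 202 FPKM over the arteries and from 0.0262 to 0.433 FPKM over the kidneys. Its difference of 7.87 (SE 0.17, limma adjusted p = 1.25e-15) was the largest of the list, and it ran from 7.04 with a pseudocount of 1 to 9.33 with a pseudocount of 0.1. The proteins encoded by these 2 genes are nearly identical. The sources used here do not state how reads that fit both genes were counted, so the split between them is uncertain.

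All 9 thin filament regulators, which hold or shield the actin filament, were higher in artery, by log2 differences of 1.12 to 6.46. Calponin 1 (Cnn1), which damps the myosin ATPase, stood at 69.3 FPKM ± 17.4 in artery (SD, n = 8) and 0.27 ± 0.0896 in kidney (SD, n = 7), a log2 difference of 6.46 (SE 0.16). Its relative Cnn2, also made outside muscle, stood at 19.7 ± 4.89 and 7.96 ± 1.40, a difference of 1.25 (SE 0.13). Thus the ratio of Cnn1 to Cnn2 ran from 1.32 to 4.92 over the arteries and from 0.0256 to 0.0522 over the kidneys. Tagln differed by 5.66 (SE 0.20) and leiomodin 1 (Lmod1, an actin nucleator of smooth muscle) by 4.88 (SE 0.17). Among the tropomyosins, which wind along actin, Tpm2 differed by 4.60 (SE 0.22), Tpm1 by 2.71 (SE 0.15) and Tpm4 by 1.17 (SE 0.14). Caldesmon (Cald1) differed by 2.85 (SE 0.15) and smoothelin (Smtn) by 1.12 (SE 0.15), the smallest difference of the group.

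The motor itself divided by chain. The smooth muscle myosin heavy chain Myh11 (chr10:743364-838459, plus strand) stood at 303, 337, 162 and 263 FPKM in wild-type arteries and 311, 229, 258 and 392 FPKM in deletion arteries. The kidneys held 2.88, 2.69 and 2.37 FPKM in wild-type and 2.35, 6.12, 1.462 and 1.63 FPKM in deletion libraries. Deletion kidney 2 stood highest among the kidneys and was still far below any artery. The log2 difference was 6.48 (SE 0.24, limma adjusted p = 8.87e-13). The regulatory light chain Myl9 differed by 4.81 (SE 0.15) and its kinase Mylk by 2.13 (SE 0.13). The essential light chain Myl6, which muscle and non-muscle myosins share, stood at 95.7 ± 25.4 FPKM in artery (SD, n = 8) and 126 ± 39.1 in kidney (SD, n = 7), with a log2 difference of -0.39 (SE 0.19, limma adjusted p = 0.0659). It did not pass, although it did with median-of-ratios scaling (-0.55, limma adjusted p = 0.0297) and without wild-type kidney 1, wild-type artery 2 or deletion artery 4. The highest Myl6 value, 207 FPKM, was that of the kidney labelled wild-type 3.

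Of the regulators of the motor, the myosin phosphatase subunits Ppp1r12b, found mostly in muscle, and Ppp1r12a, found widely, differed by 3.13 (SE 0.20) and 1.89 (SE 0.12). Ppp1r14a (CPI-17), the phosphatase inhibitor, stood at 22.7 FPKM ± 6.11 in artery (SD, n = 8) and 4.09 ± 1.36 in kidney (SD, n = 7), a difference of 2.34 (SE 0.20). Rhoa, a small GTPase, stood at 211 ± 20.1 FPKM in artery (SD, n = 8) and 217 ± 26.2 in kidney (SD, n = 7), with a difference of -0.04 (SE 0.10, 95% confidence interval -0.26 to 0.17). Its sign depended on scaling: with haemoglobin genes and Rn7sl1 left out it was 0.33 (limma adjusted p = 0.00198). The differences of the 3 phosphatase genes passed the test, with no overlap between tissues.

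Desmin (Des), the muscle intermediate filament, stood at 163 FPKM ± 33.4 in artery (SD, n = 8) and 6.22 ± 2.88 in kidney (SD, n = 7), a log2 difference of 4.69 (SE 0.22). Its partner synemin (Synm) differed by 2.78 (SE 0.15). The transcription factors split. Myocardin (Myocd, chr10:49833219-49928806, minus strand) stood at 7.36, 9.71, 5.52 and 8.26 FPKM in wild-type arteries and 7.88, 5.37, 7.89 and 10.7 FPKM in deletion arteries, against at most 0.176 FPKM in any kidney. The difference was 3.75 (SE 0.15, limma adjusted p = 1.63e-12). Srf (chr9:14426453-14435734, plus strand), which is active in many cell types, ran from 5.48 to 11.3 FPKM over the arteries and from 5.81 to 7.2 FPKM over the kidneys. Wild-type artery 1 was below all kidneys, and the difference was 0.41 (SE 0.12, limma adjusted p = 0.00644). The Srf call was lost with median-of-ratios scaling (0.26, limma adjusted p = 0.0717).

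Of the 13 genes of adhesions and dense plaques, 12 were higher in artery. The largest differences were those of synaptopodin 2 (Synpo2, an actin-bundling protein of muscle) at 5.46 (SE 0.16), the LIM protein Pdlim3 at 4.99 (SE 0.16) and Flna at 4.19 (SE 0.20). The laminin receptor subunit Itga7 differed by 3.38 (SE 0.10) and Itga8, which pairs with the beta-1 integrin and is also made by mesangial cells, by 2.77 (SE 0.26). The cytoskeletal linkers Fhl1, Sorbs2 and Pgm5 lay between 3.46 and 3.58, Csrp1 at 2.96, Pdlim7 at 2.67, and the plaque proteins vinculin (Vcl) and alpha-actinin 1 (Actn1) at 2.34 and 2.18. Tns1 was the 1 gene of the list called lower in artery, at 142 FPKM ± 20.9 (SD, n = 8) against 171 ± 20.1 in kidney (SD, n = 7). Its difference of -0.26 (SE 0.11, limma adjusted p = 0.0404) was not stable: the call was lost on leaving out any 1 of 11 of the 15 libraries and remained only without the kidney labelled wild-type 3, deletion kidney 4, wild-type artery 2 or deletion artery 4. With haemoglobin genes and Rn7sl1 left out the value was 0.11 (limma adjusted p = 0.422).

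The non-muscle counterparts did not follow the muscle isoforms. The non-muscle myosin heavy chain Myh9 stood at 81.3 FPKM ± 6.51 in artery (SD, n = 8) and 77.8 ± 10.3 in kidney (SD, n = 7), a log2 difference of 0.08 (SE 0.09, limma adjusted p = 0.44), which became -0.08 with median-of-ratios scaling and 0.45 without haemoglobin genes and Rn7sl1. Myh10 had -0.30 (SE 0.14, limma adjusted p = 0.0529), and 0.05 without haemoglobin genes and Rn7sl1. It passed as lower in artery with median-of-ratios scaling (-0.45, limma adjusted p = 0.00638) and without wild-type kidney 2, deletion kidney 3 or 4, wild-type artery 2, or deletion artery 1, 3 or 4. The cytoplasmic actins were called in opposite directions, Actb at 0.56 (SE 0.13, limma adjusted p = 0.00075) and Actg1 at -0.44 (SE 0.09, limma adjusted p = 0.000492); the Actg1 call was lost without haemoglobin genes and Rn7sl1 (-0.07). In a ratio chosen after the values were seen, Myh11 over Myh9 ran from 2.02 to 4.63 over the arteries and from 0.0204 to 0.0648 over the kidneys.

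A wider list of 50 other genes of the contractile pathway, 49 of which are in the table, was set beside the 39. In artery against kidney 37 of 49 were called higher and 6 lower, with a median log2 difference of 1.40. The largest were phospholamban (Pln, a brake on the calcium pump) at 5.20 (SE 0.24), the potassium channel subunit Kcnmb1 at 4.26 (SE 0.21), junctophilin 2 (Jph2, which tethers calcium stores to the membrane) at 3.72 (SE 0.16) and sarcospan (Sspn) at 3.55 (SE 0.12). The largest in the other direction were the phosphatase inhibitor Ppp1r14b at -0.81 (SE 0.13), cofilin 1 (Cfl1, which severs actin) at -0.61 (SE 0.13), the kinase Dapk3 at -0.48 (SE 0.10) and Actg1. Without haemoglobin genes and Rn7sl1 the calls of Cfl1 (-0.24) and Dapk3 (-0.11) were lost. Of 23 transcription regulators of smooth muscle, 19 were tested, 15 were called higher and 3 lower. Prrx1 (3.40, SE 0.15), Hey2 (3.39, SE 0.23), Zeb2 (3.06, SE 0.14) and the receptor Notch3 (2.87, SE 0.15) led in artery. Tcf21 (-1.26, SE 0.11), Smad3 (-0.75, SE 0.09) and Tead1 (-0.40, SE 0.10) were lower, and the Tead1 call was lost without haemoglobin genes and Rn7sl1 (-0.04).

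Markers of other cell types moved with the tissue as well. All 7 fibroblast markers, all 10 adipocyte markers and all 7 endothelial markers were called higher in artery, and all 7 proximal tubule markers lower. Their median log2 differences were 4.55, 7.19, 1.73 and -9.02, against 2.90 for the 38 members tested. The 5 nerve and Schwann cell markers tested were all called higher, with a median of 5.35. Of 8 pericyte and mesangial markers, 6 were called higher and 2 lower, with a median of 2.14. Fibroblast markers summed to 1965 to 3898 FPKM in artery libraries and to 145 to 194 FPKM in kidney libraries. Of 15 markers of skeletal and cardiac muscle, 14 are in the table, and their sum was at most 15.9 FPKM in any artery, with 0.987 FPKM as the highest kidney value; Myh4, a fast skeletal myosin, was listed at 0 in all libraries. The part of these cell types in the tissue differences was not tested.

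In the arteries, none of the 39 genes passed the test between deletion and wild-type. limma called 0 of the 38 tested genes, as it called 0 of all 16470 (0%), with a smallest adjusted p of 0.893 among the 38. At an unadjusted p under 0.05 there was 1 gene of the 38, Itga7, against 5.24% of all genes. The log2 differences, deletion minus wild-type, ran from -0.28 for Sorbs2 to 0.46 for Itga7, with a median of 0.12 against 0.04 over all genes. They were above 0 for 29 of 38, where 59.7% of all genes were above 0. This count moved most with 1 library: without wild-type artery 3 it was 13 of 38, with a median of -0.04, and without deletion artery 2 it was 34 of 38, with a median of 0.20. With both left out, an alternative chosen after seeing the data, it was 25 of 38 with a median of 0.05.

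The core markers differed by less than their spread. The mean of Acta2 was 765 FPKM ± 268 over wild-type arteries and 826 ± 231 over deletion arteries (SD, n = 4 each), a log2 difference of 0.14 (SE 0.30, 95% confidence interval -0.53 to 0.80). Myh11 averaged 266 ± 76 and 297 ± 71.5 (SD, n = 4 each), a difference of 0.18 (SE 0.25, interval -0.39 to 0.75). Tagln averaged 827 ± 263 and 834 ± 248 (SD, n = 4 each), a difference of 0.03 (SE 0.30, interval -0.65 to 0.70). For Myocd the difference was 0.03 (SE 0.21, interval -0.45 to 0.51). As ratios, the intervals ran from 0.692 to 1.74 for Acta2 and from 0.635 to 1.63 for Tagln, so changes of that size in either direction could not be resolved. All 4 turned negative without wild-type artery 3: Acta2 to -0.03, Myh11 to -0.04, Tagln to -0.21 and Myocd to -0.11.

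**Figure D4:**
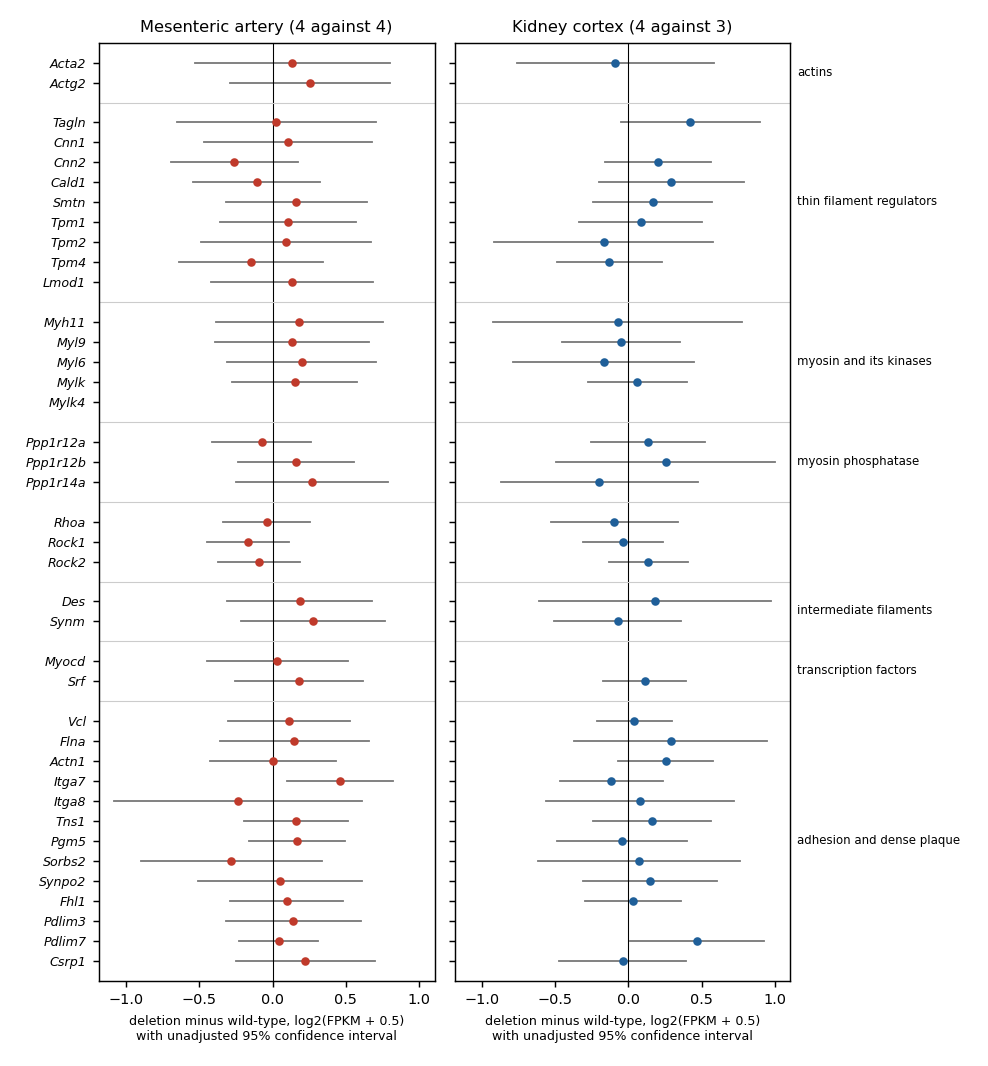
Difference between deletion and wild-type for each gene in artery (4 against 4) and kidney (4 against 3), in log2(FPKM + 0.5) with unadjusted 95% confidence intervals from limma; genes under the filter have no point. The intervals of Itga7 in artery (0.10 to 0.82) and of Pdlim7 in kidney (0.01 to 0.92) do not reach 0, and neither gene passed after adjustment.

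Itga7, which joins the muscle cell to laminin (chr7:1360125-1388886, plus strand), stood at 42.2, 41.9, 33.8 and 33.4 FPKM in wild-type arteries and 43.6, 70.3, 46.6 and 51.1 FPKM in deletion arteries. The groups did not overlap, though the lowest deletion artery lay only just above the highest wild-type artery, and deletion artery 2 was well above the rest. Across all genes tested, 2.3% had every deletion artery above every wild-type artery, and 0.953% had every one below; among the 38 members 1 was above and 0 below. The log2 difference was 0.46 (SE 0.16, limma unadjusted p = 0.0177, adjusted p = 0.893). It was 0.32 without deletion artery 2 and 0.41 without wild-type artery 4, and the unadjusted p stayed under 0.05 when any library but wild-type 4 was left out. Without wild-type artery 3 and deletion artery 2 it was 0.27 and no longer under that threshold. Over all alternatives the adjusted p ran from 0.713 to 0.999.

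The other named members overlapped between genotypes. Cnn2 had a log2 difference of -0.26 (SE 0.19) in the arteries, where wild-type artery 3 held the highest value, 29.4 FPKM, and deletion artery 1 the lowest, 14.1 FPKM. Rock1 had -0.17 (SE 0.12), Synm 0.28 (SE 0.22) and Ppp1r14a 0.27 (SE 0.23). Pgm5 had 0.17 (SE 0.15), Csrp1 0.22 (SE 0.21) and Actg2 0.25 (SE 0.24). In the largest roles, 11 of 13 adhesion and dense plaque genes, 6 of 9 thin filament regulators and 4 of 4 tested myosin and kinase genes were above 0. None of them passed the test. Among all 38 members tested, 29 were above 0 and 9 below, and 59.7% of all genes were above 0.

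**Figure D5:**
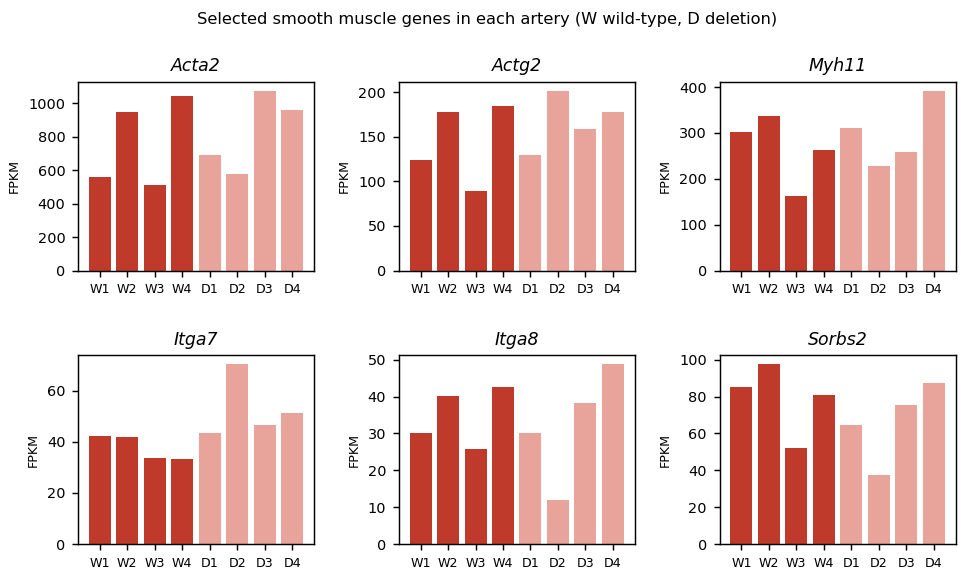
FPKM of 6 members in each of the 8 arteries (bars, from 0; W wild-type, D deletion). Wild-type 3 is low for Actg2, Myh11 and Acta2, while deletion 2 is highest for Itga7 (70.3 FPKM) and Actg2 and lowest for Itga8 (11.9 FPKM) and Sorbs2 (37.5 FPKM).

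Deletion artery 2 departed in the proportion of its muscle genes and not only in their level. Itga8 stood at 30.1, 40.03, 25.8 and 42.5 FPKM in wild-type arteries and 30.1, 11.9, 38.2 and 48.7 FPKM in deletion arteries, so deletion artery 2 was the lowest by far. In the same library Itga7 and Actg2 were the highest of the 8. Ratios chosen after seeing these values were 5.89 for Itga7 over Itga8 in deletion artery 2, against 0.785 to 1.45 in the other arteries, and 0.35 for Actg2 over Acta2, against 0.147 to 0.222. Sorbs2 stood 1.05 below its artery median on the log2 scale there and Itga8 1.47 below. Wild-type artery 3, by contrast, was low in nearly all members: its largest departures were -0.91 for Actg2, -0.87 for Cnn1 and -0.83 for Tagln, while Cnn2 was 0.63 above the median. Both libraries carried the high lymphocyte marker sums given above, and the part of those cells in these departures was not tested.

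In the wider lists, too, no gene passed in the arteries. Of 49 other contractile pathway genes 37 lay above 0 and 12 below, with 0 called and a median of 0.09. Of all genes 59.7% lay above 0, with a median of 0.04. The gene with the smallest p was alpha-sarcoglycan (Sgca, of the dystrophin complex), at 3.85, 4.01, 2.99 and 3.86 FPKM in wild-type and 5.15, 5.12, 4.13 and 4.98 FPKM in deletion arteries. These groups did not overlap, and the log2 difference was 0.36 (SE 0.13, limma unadjusted p = 0.0215, adjusted p = 0.893). Of the 49 genes, 1 had every deletion artery above every wild-type artery, against 2.3% of all genes. At an unadjusted limma p under 0.05 there was 1 of the 49, against 5.24% of all genes. Fbxo32 had 0.30 (SE 0.15), Lims2 0.28 (SE 0.15) and Tln2 0.29 (SE 0.17). Of 19 transcription regulators 10 lay above 0 and 9 below, with 0 called and 0 at an unadjusted p under 0.05. Klf4, a repressor of the contractile genes, had the smallest p, at -0.38 (SE 0.19, limma unadjusted p = 0.072). Notch3 had 0.31 (SE 0.18), Tead1 0.19 (SE 0.11) and Smad3 0.18 (SE 0.12). Among other cell types, the 6 nerve and Schwann cell markers summed to between 264 and 380 FPKM in wild-type and between 389 and 456 FPKM in deletion arteries, with 5 of 5 tested markers above 0 and 0 called. Pericyte and mesangial markers summed to between 221 and 283 FPKM in wild-type and between 280 and 312 FPKM in deletion arteries, with 6 of 7 tested markers above 0 and 0 called. At an unadjusted limma p under 0.05, 1 of the 7 tested markers was higher in deletion arteries and 1 was lower. Of all genes, 5.24% had such a p in either direction. The lower marker was Gata3, at 0.518, 0.700, 0.955 and 0.885 FPKM in wild-type and 0.214, 0.449, 0.298 and 0.432 FPKM in deletion arteries. These groups did not overlap, and the log2 difference was -0.57 (SE 0.19, limma unadjusted p = 0.0148, adjusted p = 0.893). Of all genes, 0.953% had every deletion artery below every wild-type artery. The Gata3 levels lie near the 0.5 FPKM that was added before the log. All 10 adipocyte and all 6 mesothelial markers tested lay above 0, with medians of 0.18 and 0.90, against 59.7% of all genes. The mesothelial sums ran from 3.34 to 35.0 FPKM in wild-type and from 5.03 to 169 FPKM in deletion arteries. All 13 erythrocyte, all 6 macrophage and all 6 intestinal epithelium markers tested lay below 0, with medians of -0.96, -0.21 and -0.73. Markers of 1 list were measured in the same libraries, so these counts are not independent. None of these markers was called, and 0 had an unadjusted p under 0.05 in those 5 lists. The part of these cell types in the differences of the members was not tested.

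In kidney cortex none of the members passed either. limma tested 33 of the 39, since Actg2, Cnn1, Lmod1, Mylk4, Myocd and Pdlim3 averaged under 0.5 FPKM there, and called 0 of them and 0 of all 15444 genes (0%). At an unadjusted p under 0.05 there was 1 of 33, against 1.41% of all genes. Of the 33, 20 lay above 0 and 13 below, where 60.2% of all genes lay above 0, and the median was 0.07 against 0.04 over all genes. Without deletion kidney 2 the count above 0 was 13 of 32 and the median -0.03, against 52.9% and 0.01 over all genes. Without the kidney labelled wild-type 3 the count was 20 of 33 with a median of 0.04, against 50.5% and 0.002 over all genes.

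Pdlim7, a LIM protein of the actin cytoskeleton (chr17:9124565-9139814, plus strand), stood at 3.06, 2.61 and 2.58 FPKM in wild-type and 4.27, 5.51, 3.28 and 3.21 FPKM in deletion kidneys. The groups did not overlap, and the lowest deletion kidney lay close to the highest wild-type kidney. This was so for 1 of 33 members, against 1.54% of all genes for a higher and 1.01% for a lower deletion group. The log2 difference was 0.46 (SE 0.20, limma unadjusted p = 0.0468, adjusted p = 0.999), and it was 0.32 without deletion kidney 2 and 0.43 without the kidney labelled wild-type 3. The unadjusted p was no longer under 0.05 when deletion kidney 1 or 2 or any 1 of the 3 kidneys labelled wild-type was left out. The library with the highest Pdlim7 value, deletion kidney 2, also had the highest podocyte, pericyte and endothelial marker sums and the lowest proximal tubule sum. The part of those cells was not tested.

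Tagln stood at 12.4, 17.1 and 10.7 FPKM in wild-type and 21.8, 22.2, 14 and 14.8 FPKM in deletion kidneys. The groups overlapped, with deletion 1 and 2 above all wild-type kidneys, and the log2 difference was 0.42 (SE 0.21, limma unadjusted p = 0.0751). Leaving out 1 library, it ran from 0.28 without the kidney labelled wild-type 3 to 0.60 without wild-type kidney 2. The unadjusted limma p fell under 0.05 without wild-type kidney 2, without deletion kidney 3 and with the replicate number as a block. The limma adjusted p was at least 0.698 in every alternative. Acta2 averaged 11.1 FPKM ± 2.61 (SD, n = 3) and 11 ± 5.3 (SD, n = 4), a difference of -0.09 (SE 0.30, 95% confidence interval -0.76 to 0.58), or -0.29 without the kidney labelled wild-type 3. Myh11 had -0.07 (SE 0.38, interval -0.92 to 0.77). Actn1 had 0.25 (SE 0.14), Cald1 0.29 (SE 0.22), Cnn2 0.20 (SE 0.16), Rock2 0.14 (SE 0.12), Flna 0.29 (SE 0.29) and Smtn 0.17 (SE 0.18). For Flna the value was 0.04 without the kidney labelled wild-type 3. Deletion kidney 2 was the highest kidney for Acta2, Myh11, Cald1, Flna and Smtn, at 18.7, 6.12, 37.5, 35.6 and 17.9 FPKM.

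Of 47 other contractile pathway genes tested in kidney, 32 lay above 0 and 15 below, against 60.2% of all genes above 0, with 0 called. Ckb, the brain-type creatine kinase, had the smallest p: it stood at 24.0, 27.1 and 21.9 FPKM in wild-type and 38.3, 34.2, 29.5 and 28.6 FPKM in deletion kidneys. Its groups did not overlap and its difference was 0.41 (SE 0.14, limma unadjusted p = 0.0166, adjusted p = 0.999), or 0.34 without the kidney labelled wild-type 3. Of the 47 genes, 1 had every deletion kidney above every wild-type kidney, against 1.54% of all genes. At an unadjusted limma p under 0.05 there was 1 of the 47, against 1.41% of all genes. Hspb6 had -0.33 (SE 0.18), Cap2 0.34 (SE 0.21) and Dmd, which encodes dystrophin, 0.30 (SE 0.20). Of 18 transcription regulators 16 lay above 0 and 2 below, against the same 60.2% of all genes, with 0 called. Klf5 had 0.46 (SE 0.20, limma unadjusted p = 0.0445) at levels of 0.386 to 1.02 FPKM, Tead1 0.27 (SE 0.15), Elk1 0.23 (SE 0.15) and Zeb2 0.24 (SE 0.18). Klf5 was the 1 of these 18 at an unadjusted limma p under 0.05, against 1.41% of all genes.

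No member passed the interaction test, which asks whether the deletion effect differs between the tissues. limma called 0 of them and 0 of all 16856 genes (0%), and at an unadjusted p under 0.05 there was 1 of 38, against 4.39% of all genes. That gene was Itga7, with an artery effect 0.58 above its kidney effect (SE 0.21, 95% confidence interval 0.13 to 1.02, limma unadjusted p = 0.0142, adjusted p = 0.943). In kidney Itga7 stood at 4.47, 3.40 and 4.15 FPKM in wild-type and 3.96, 3.39, 3.47 and 3.76 FPKM in deletion libraries, with overlap. Pdlim7 had an interaction of -0.42 (SE 0.22) and Cnn2 of -0.46 (SE 0.27). Without the kidney labelled wild-type 3 these values were 0.55, -0.39 and -0.40 for Itga7, Pdlim7 and Cnn2.

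Members varied unequally between libraries of 1 tissue. Over the 8 arteries the ratio of the highest to the lowest library had a median of 2.06 over the 39 genes; it was smallest for Rhoa (1.30), Rock2 (1.41) and Pdlim7 (1.42) and largest for Itga8 (4.08), with Mylk4 at 2.98 and Sorbs2 at 2.60. Over the 7 kidneys the median was 2.02, with Vcl (1.23) and Srf (1.24) lowest and Myh11 (4.19) the widest among genes above 0.5 FPKM. The gene models of 15 members overlap another model in the table, 14 of them one on the opposite strand. The sources used here do not state whether reads were counted by strand, so reads of overlapping partners cannot be told apart. The most abundant partner in artery was Tcta, over 399 bases of Rhoa, at 23.1 FPKM on average against 211 FPKM for Rhoa. Other partners stood higher relative to their member. Over 13340 bases of Lmod1, LOC120096253 averaged 7.05 FPKM in artery, against 22.0 FPKM for Lmod1. Over 3103 bases of Myocd, LOC120095121 averaged 2.07 FPKM in artery, against 7.84 FPKM for Myocd. In kidney, Mettl7b, over only 11 bases of Itga7, averaged 49.6 FPKM against 3.80 FPKM for Itga7.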

How the data were processed

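RNA-seq values of 15 libraries (8 arteries, 7 kidneys) were used. The authors deposited 1 table of FPKM values with 1 column per library. Per the submitters' processing notes, the tools included DESeq2 1.46.0, HISAT2 2.2.1 and Trim Galore 0.6.2, on build rn7, with no role stated; what computed the FPKM was not given in the sources used here. Of 40694 rows, 6337 without an identifier were left out, as was 1 value column of no stated sample. FPKM carry no depth, so no counting interval is given.

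Differences were tested with limma 3.58.1 in R 4.3.3 (trend and robust moderation) on log2(FPKM + 0.5), with no further scaling, for genes averaging 0.5 FPKM or more over the libraries fitted. Each tissue was fitted alone; the tissue difference and the interaction used all 15 libraries. Tests are two-sided, and p-values were adjusted by Benjamini-Hochberg over all genes tested. Code was tested on simulated data. The members and lists were chosen with earlier results of these data known. Deletion statistics are given for Acta2, Myh11, Tagln, Myocd and the 8 members with the smallest p in each tissue, for 3 members in the interaction, and for 4 genes of each wider list; tissue differences are given for the 4 genes of each wider list that differed most in each direction and for the non-muscle isoforms. Numbers of replicates in the titles were checked as pairs. Alternatives were other pseudocounts, filters and scalings, moderation without the robust option, a replicate block, 1 fit over both tissues, an adipocyte covariate and leaving out each library. Tables and figures were made with pandas 2.3.3 and matplotlib 3.10.9 in Python 3.11.15. The results of 1 group of regulators are not reported here in full.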

Additional observations from a re-analysis of the deposited data

Results flagged for a closer look

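In 6 of 117 combinations of member and group of 4 libraries, the gap between the highest or lowest library and its nearest neighbour, as a share of the range over the group, exceeded the 95% critical value of Dixon's test; by the construction of that test, chance alone passes about 1 group in 20. In deletion arteries, Cnn2 stood at 14.1 FPKM in deletion 1, below 18.6 to 19.2 FPKM in the others, and Des at 201 FPKM in deletion 4, above 159 to 163 FPKM. In deletion kidneys, Actg2 stood at 0.433 FPKM in deletion 1, above 0.0262 to 0.0879 FPKM. The other 3 were all in deletion kidney 2: Smtn at 17.9 FPKM against 10.3 to 11.4 FPKM, Lmod1 at 0.529 FPKM against 0.167 to 0.189 FPKM, and Sorbs2 at 11.1 FPKM against 4.42 to 4.71 FPKM.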

How the results depend on the processing

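Under the alternatives tried, limma called 0 members for the deletion in artery, 0 in kidney and 0 in the interaction in every one, and 34 to 36 members as higher in artery. The number called lower in artery, 1, was 2 with median-of-ratios scaling, 0 without haemoglobin genes and Rn7sl1, and 0 to 2 on leaving out 1 library. The median of all genes between tissues was 0.11 as deposited, -0.03 with median-of-ratios scaling and 0.44 without haemoglobin genes and Rn7sl1, where 54.4%, 49.0% and 67.4% of genes lay above 0. With median-of-ratios scaling 25 of 38 members lay above 0 in artery and 15 of 32 in kidney, against 49.6% and 43.2% of all genes. That scaling turned the artery deletion values of Tagln to -0.026 and Myocd to -0.015 and the tissue value of Myh9 to -0.075. Leaving out haemoglobin genes and Rn7sl1 turned the tissue values of Rhoa to 0.33, Tns1 to 0.11 and Myh10 to 0.046. Without wild-type artery 3 and deletion artery 2, Tagln was -0.033 and Actg2 -0.053 in artery. The cause of these shifts was not tested. On leaving out 1 library, the artery deletion value ran from -0.035 to 0.31 for Acta2, -0.041 to 0.31 for Myh11, -0.21 to 0.20 for Tagln and -0.12 to 0.20 for Myocd. The kidney value ran from -0.37 to 0.057 for Acta2, -0.46 to 0.13 for Myh11 and -0.00929 to 0.25 for Smtn, and the tissue value of Rhoa from -0.090 to 0.00309. Same-numbered wild-type and deletion libraries had correlations of 0.32, -0.34, 0.24 and 0.30 in artery and 0.08, -0.01 and 0.27 in kidney, not every library correlated best with its own number, and the numbers were not taken as pairs. With the replicate number as a block the kidney values of Acta2 and Myh11 were 0.057 and 0.088, the tissue value of Tns1 was -0.27 (limma adjusted p = 0.0526) and that of Myl6 was -0.42 (limma adjusted p = 0.0473); the block changed no other call and left the counts at 0, 0, 0, 35 and 1. Depth is unknown, so no limit of detection can be set for genes listed near 0, such as Mylk4.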
